A study of Homo sapiens with 4 samples.

Results

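The genes described here are 33 regulators of the G2 phase and of mitosis, measured in the human cell line MIA PaCa-2, which derives from a carcinoma of the pancreas. They were fixed by name, with earlier results of these data known. Each gene was read by its brightest probe set among those that the HG-U133 Plus 2.0 annotation assigns to a single symbol. All 33 had such a probe set and passed the filter on dim genes, so they form 33 of the 12190 genes tested and of the 19775 genes measured. The lowest signal of any of them on any array was 263 (PLK1), against a filter at 64.6.

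The study had 4 arrays. Control cells carried a GFP lentivirus (2 arrays, a and b), and ING3 cells carried FLAG-tagged full-length ING3 from a lentiviral vector with a CMV/TO promoter (2 arrays, a and b). Stable clones were selected, grown in high-glucose DMEM with fetal bovine and horse serum, and harvested before full confluence; whether clones were pooled is not stated in the labels. Each group is described as technical duplicates, so the p-values set differences against the spread between arrays and compare 1 selected population per group.

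The arrays had been scaled to a trimmed mean of 500.1 each. For ACTB, the 3' control probe set was 1.80 to 2.58 times as bright as the 5' one in control cells and 2.03 to 2.05 times in ING3 cells. ING3 itself read 338 and 373 in control and 521 and 541 in ING3 cells on its brightest probe set, a log2 difference of 0.58 (SE 0.13) that missed the threshold (adjusted p = 0.071 by limma). It was 0.23 (adjusted p = 0.66) with the mean of its probe sets, and it passed with a replicate block (adjusted p = 0.040). Of the epithelial markers, KRT8, KRT18 and KRT19 were bright (3704 to 30060 over the 4 arrays), while EPCAM (15.2 to 37.9) and CDH1 (1.92 to 19.7) lay under the filter. KRT8 and KRT19 also rose in the ING3 cells (log2 differences 0.32 and 0.52, adjusted p = 0.033 and 0.0078 by limma). VIM, a mesenchymal filament, read 24290 to 27680. KRT7 was dim and overlapped between groups (70.2 to 111). Of the fibroblast markers, COL1A2 read 4648 and 4548 in control and 3749 and 3996 in ING3 cells and COL1A1 181 to 288, both with the ING3 arrays the lower (log2 differences -0.25 and -0.45, adjusted p = 0.091 and 0.27 by limma). DCN overlapped near the filter, PDGFRB lay under it, and LUM lay under it at 5.10 to 48.6 with the ING3 arrays the higher. Of the leukocyte markers, PTPRC (9.38 to 15.97) and CD14 lay under the filter and CD3E overlapped at 38.8 to 129. Of the endothelial markers, VWF lay under the filter, and CDH5 (257 to 328) and PECAM1 (100.3 to 147) overlapped. The part of these cell type markers in the results was not tested.

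Entry into mitosis is driven by CDK1 bound to A- and B-type cyclins, and the Polo and Aurora kinases then direct centrosomes, spindle and chromosomes. The spindle checkpoint kinases at the kinetochore hold back the anaphase-promoting complex until every chromosome is attached, after which cyclin B is destroyed and the central spindle and contractile ring divide the cell. Transcripts of this group peak together late in the cell cycle, through MuvB complexes with the repressive DREAM form and with MYBL2 or FOXM1. In a bulk culture, a higher share of cells in G2 and mitosis and more RNA per such cell cannot be told apart.

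MuvB complexes bind a short promoter element, the cell cycle genes homology region (CHR), whose usual letters are TTTGAA, and NF-Y binds CCAAT boxes upstream of it. RefSeq promoter windows of GRCh38.p14, from 250 bases before to 50 bases after the gene start, were matched for 27 of the 33 genes. Either strand of TTTGAA, or TTCGAA, stood in a window of 20 of the 27 (74.1%), against 19.5% of 27305 genes with a window. CCAAT on either strand stood in 23 of the 27 (85.2%), against 39.7%. Both kinds of letters stood in 18 of the 27 (66.7%), against 7.85%. These are matches of letters in a window and do not show binding.

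The 110 bases before the gene start are shown for ANLN and HMMR, the gene called and the gene with the highest difference, and for CCNB2, PLK1 and PRC1, a cyclin, a kinase and a central spindle gene with differences from high to near 0. Capitals mark the CHR letters and the CCAAT letters on either strand. ANLN lies at chr7:36389752-36389861 (+), HMMR at chr5:163460522-163460631 (+), CCNB2 at chr15:59105036-59105145 (+), PLK1 at chr16:23678779-23678888 (+) and PRC1 at chr15:90994536-90994645 (-). Each is printed 5′ to 3′ on the gene's strand.
ANLN: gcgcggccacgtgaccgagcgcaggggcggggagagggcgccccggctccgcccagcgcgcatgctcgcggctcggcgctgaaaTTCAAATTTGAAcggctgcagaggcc
HMMR: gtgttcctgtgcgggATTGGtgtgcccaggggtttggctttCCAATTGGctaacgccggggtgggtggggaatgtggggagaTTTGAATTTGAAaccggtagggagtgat
CCNB2: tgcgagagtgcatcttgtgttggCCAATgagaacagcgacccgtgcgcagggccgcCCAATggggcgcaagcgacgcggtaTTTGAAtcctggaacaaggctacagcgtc
PLK1: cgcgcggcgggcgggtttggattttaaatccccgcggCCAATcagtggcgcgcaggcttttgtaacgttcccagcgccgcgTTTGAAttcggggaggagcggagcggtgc
PRC1: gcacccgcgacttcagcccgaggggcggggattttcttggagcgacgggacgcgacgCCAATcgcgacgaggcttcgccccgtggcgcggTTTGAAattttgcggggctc

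ANLN and HMMR each carried 2 adjoining copies of the CHR letters, at -26 and -20 from the start in ANLN, on opposite strands, and at -28 and -22 in HMMR, on the same strand. CCNB2, PLK1 and PRC1 each carried 1 copy, at -29, -29 and -20. The ANLN stretch held no CCAAT letters. In the longer windows CDC20, ECT2, TOP2A, CDK1, DLGAP5 and MKI67 also held more than 1 copy of the CHR letters. Their log2 differences ran from 0.094 (CDC20) to 0.30 (MKI67), and AURKB, also at 0.30, held no copy. Whether the number of copies goes with the difference was not tested. The 20 genes with the CHR letters had a median log2 difference of 0.12 between ING3 and control cells, and the 7 matched genes without them also had 0.12.

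On the brightest probe sets the group as a whole stood slightly higher in the ING3 cells, and ANLN was its sole called gene. The median log2 difference, ING3 minus control, was 0.12 over the 33 genes, with the middle of the range (first to last quartile) from 0.0034 to 0.19, against a median of -0.0074 over all tested genes. Over the 25 other probe sets of these genes past the filter, the median was -0.055. Of the 33, 25 had the higher mean in ING3 cells, where 48.3% of all tested genes did. Both ING3 arrays lay above both control arrays for 20 of the 33 (60.6%), against 24.3% of all tested genes, and below them for 1, AURKA (3.03%), against 24.9%; the remaining 12 overlapped.

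Called genes were few. With limma over all tested genes, 1 of the 33 passed an adjusted p of 0.05 (3.03%), against 1.50% of all tested genes, so a single call among 33 genes is near the background share. It rose, where 1.03% of all tested genes did, and 0 of the 33 fell, where 0.476% did. At an unadjusted p under 0.05 the count was 8 of 33 (24.2%), against 17.7% of all tested genes. With 2 arrays against 2, an exact permutation test of a single value cannot go below p = 0.333.

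**Figure D1:**
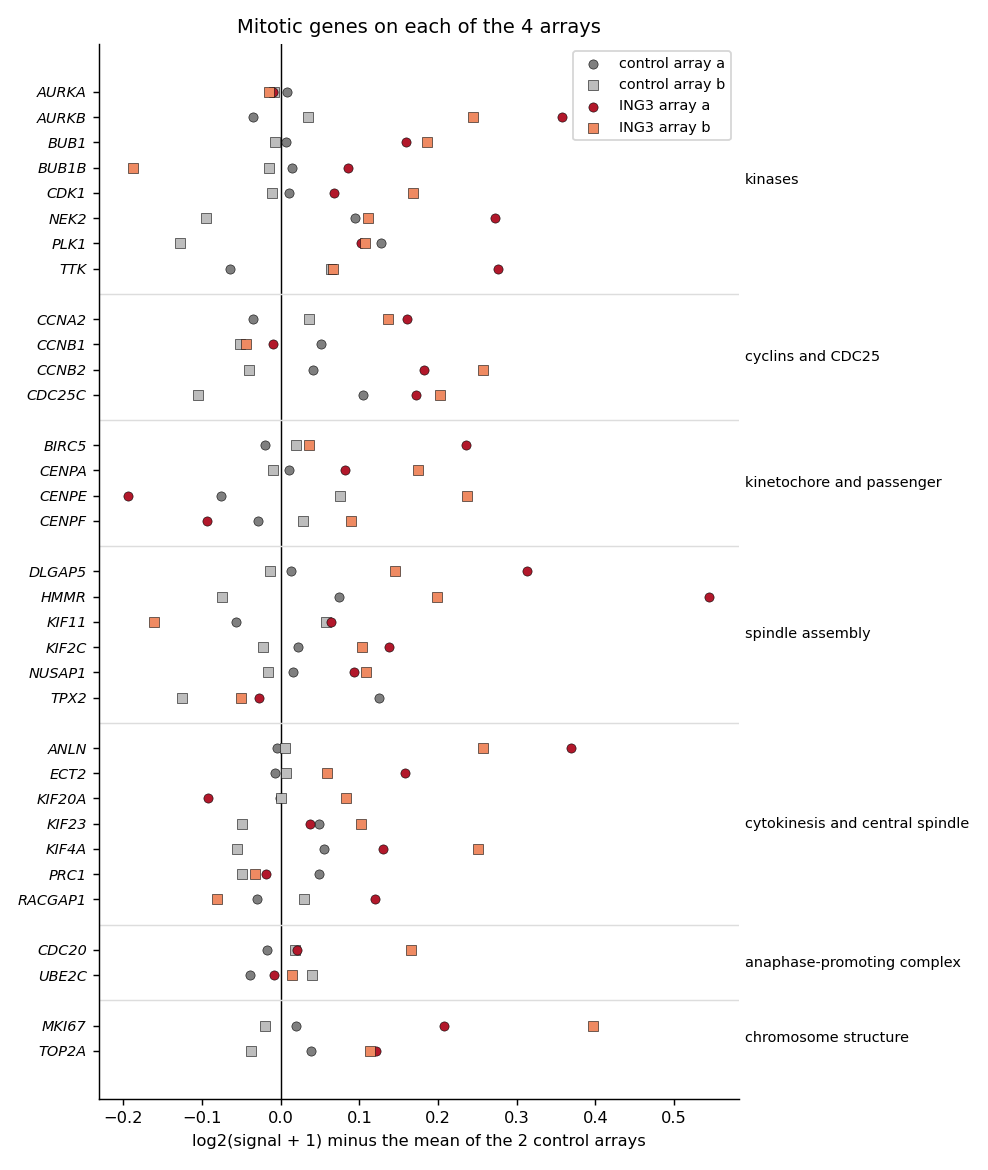
Each of the 33 genes on each array, by role, as log2(signal + 1) minus the mean of the 2 control arrays; grey symbols are control arrays, red and orange symbols ING3 arrays, circles array a and squares array b. For 20 genes both ING3 symbols lie to the right of both control symbols, and for AURKA both lie just to the left.

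The median was above 0 in each of the 4 combinations of an ING3 and a control array and slightly below 0 between duplicates. The median log2 difference of the 33 genes was 0.077 for ING3 a against control a and 0.092 for ING3 b against control a. Against control b it was 0.13 for ING3 a and 0.15 for ING3 b. Between the control duplicates it was -0.022 (b minus a), and between the ING3 duplicates -0.0083. The number of genes higher on the ING3 array was 24 and 25 of 33 against control a and 28 and 28 against control b, while 13 and 15 of 33 were higher on array b than on array a within the control and the ING3 group. The shift was therefore larger against control b than against control a. The medians over all 12190 tested genes were also higher against control b. They were -0.0093 for ING3 a and -0.020 for ING3 b against control a, and 0.011 and 5.9e-05 against control b. Of the 12190 genes, 5877 and 5667 were higher on the ING3 array against control a, and 6358 and 6098 against control b.

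**Figure D2:**
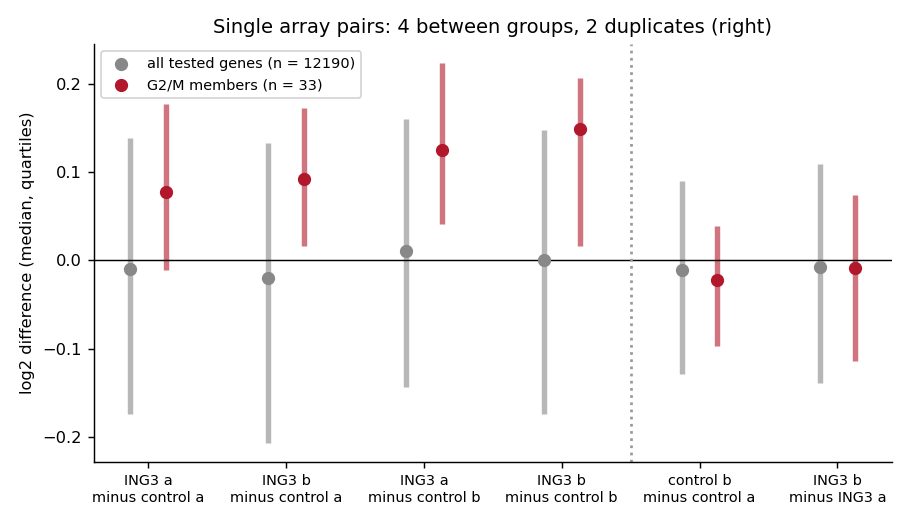
Median (point) and quartiles (bar) of the log2 difference between single arrays, for all 12190 tested genes in grey and for the 33 mitotic genes in red. The 4 differences between groups have medians of 0.077 to 0.15 for the mitotic genes, and the 2 differences between duplicates, right of the dotted line, have medians of -0.022 and -0.0083.

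Cytokinesis and the central spindle held the called gene. ANLN encodes anillin, the scaffold that links actin, myosin and septins in the contractile ring. Its signal was 5383 and 5420 in control and 6979 and 6454 in ING3 cells, so both ING3 arrays lay above both control arrays, by more than the duplicates differed. It rose 1.24-fold, from 5402 ± 26.4 to 6717 ± 371 (SD, n = 2), a log2 difference of 0.31 (SE 0.062, 95% interval 0.17 to 0.45, adjusted p = 0.047 by limma). Its other probe set read 1331 and 1384 in control and 1664 and 1719 in ING3 cells, which gave 0.32. The size of the difference stayed between 0.26 and 0.37 under the 12 alternative settings, but the call held in 3 of them, with adjusted p from 0.021 to 0.32. It was lost without control array a (adjusted p = 0.32), without control array b (adjusted p = 0.31) and without ING3 array a (adjusted p = 0.067).

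The other 6 cytokinesis genes did not pass (1 at an unadjusted p under 0.05 in limma). KIF4A, a chromokinesin of the central spindle, read 1584 and 1468 in control and 1669 and 1814 in ING3 cells (log2 difference 0.19, SE 0.083). ECT2, the exchange factor that activates RhoA at the cell equator, read 5071 and 5121 in control and 5687 and 5308 in ING3 cells (log2 difference 0.11, SE 0.062). Neither overlapped between groups. KIF23 and RACGAP1, which together form the centralspindlin complex that recruits ECT2, overlapped between groups, with log2 differences of 0.070 (SE 0.10) and 0.019 (SE 0.080). PRC1, which bundles antiparallel microtubules, and KIF20A, a kinesin of the midzone, also overlapped, with log2 differences of -0.026 (SE 0.066) and -0.00475 (SE 0.092). These last 4 genes lay within 1 SE of 0, and whether ANLN differs from them was not tested.

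**Figure D3:**
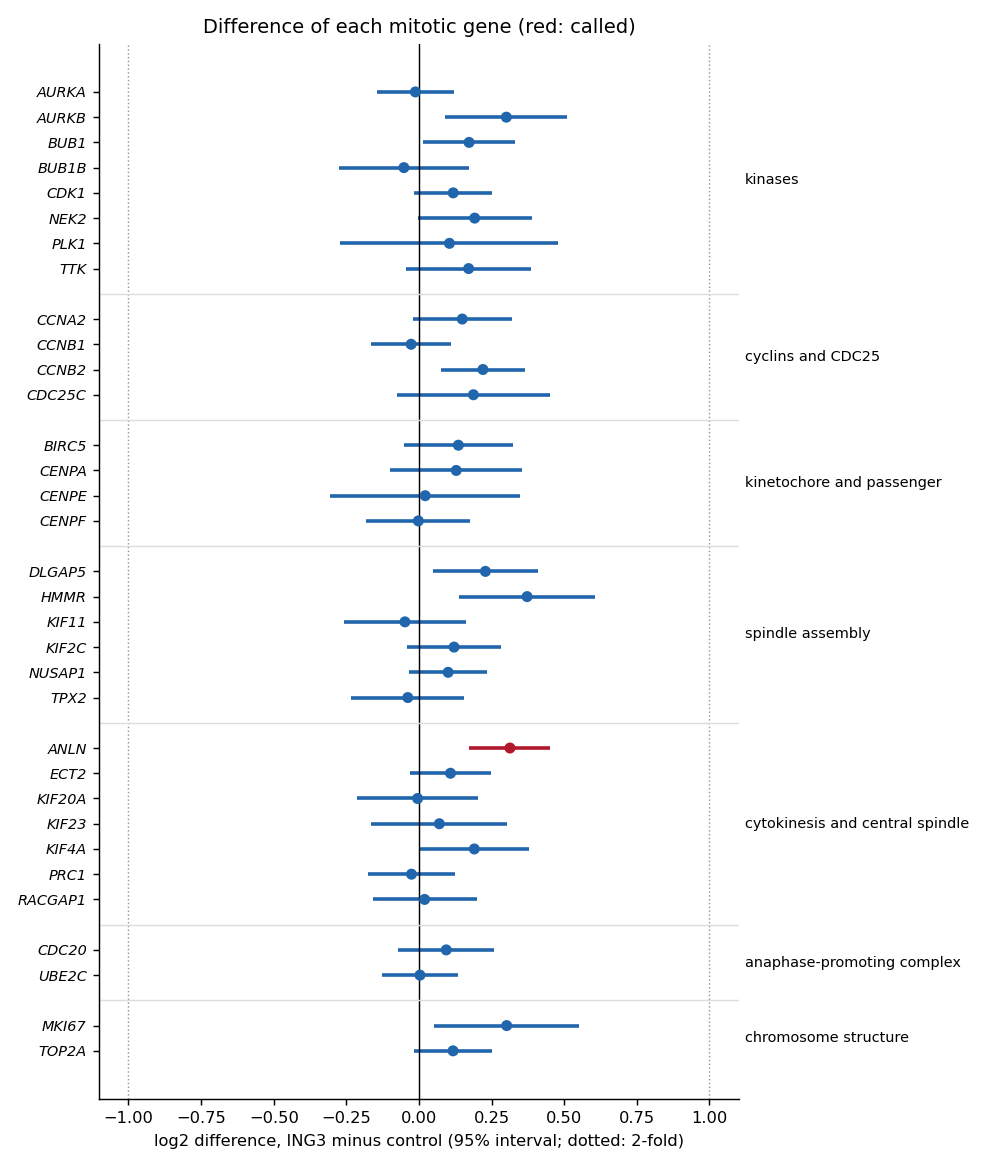
Log2 difference, ING3 minus control, with its 95% interval from limma for each of the 33 genes by role; red marks ANLN, the called gene, and dotted lines mark a 2-fold difference. No interval reaches 2-fold, and the highest upper end, that of HMMR, is 0.61.

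Of the 8 mitotic kinases, none passed the limma test over all genes (2 at an unadjusted p under 0.05), 6 had the higher mean in ING3 cells, and their median log2 difference was 0.14. AURKB, the catalytic subunit of the chromosomal passenger complex, read 878 and 922 in control and 1153 and 1066 in ING3 cells. Its ING3 arrays were the higher, and its log2 difference was 0.30 (SE 0.094, adjusted p = 0.14 by limma). With its other, dim probe set averaged in, the difference was 0.64 (adjusted p = 0.36 by limma). AURKA, the related kinase of centrosomes and spindle poles, read 4539 and 4489 in control and 4485 and 4466 in ING3 cells, which is a log2 difference of -0.012 (SE 0.059). The groups did not overlap for AURKA, but the gap was smaller than the distance between the control duplicates. Its ING3 arrays were also the lower on its 2 other probe sets (-0.057 and -0.54), and the mean of its probe sets gave -0.20.

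BUB1, the checkpoint kinase that marks centromeric histone, read 1849 and 1832 in control and 2056 and 2094 in ING3 cells (log2 difference 0.17, SE 0.071), with no overlap and close duplicates. Its relative BUB1B, the pseudokinase of the checkpoint complex, read 1489 and 1460 in control and 1564 and 1294 in ING3 cells (log2 difference -0.052, SE 0.10), with 1 ING3 array above and 1 below the controls. TTK, the apical checkpoint kinase, read 1291 and 1411 in control and 1634 and 1414 in ING3 cells (log2 difference 0.17, SE 0.096). For TTK the lower ING3 array and the higher control array were nearly equal.

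CDK1, the kinase of mitotic entry, read 7581 and 7466 in control and 7886 and 8450 in ING3 cells (log2 difference 0.12, SE 0.059). NEK2, a kinase of centrosome separation, read 2540 and 2227 in control and 2872 and 2569 in ING3 cells (log2 difference 0.19, SE 0.087). Both genes kept the groups apart, NEK2 by a margin far smaller than the distance between its duplicates. PLK1, the Polo kinase, read 314.5 and 263 in control and 309 and 310 in ING3 cells (log2 difference 0.10, SE 0.17), and its groups overlapped because 1 control array was the highest of the 4. Its 95% interval, from -0.27 to 0.48, was the widest among the kinases.

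CCNB2, a B-type cyclin, read 4130 and 3903 in control and 4557 and 4799 in ING3 cells, with no overlap (log2 difference 0.22, SE 0.064, adjusted p = 0.13 by limma). CCNB1, the main partner of CDK1, read 6905 and 6429 in control and 6616 and 6463 in ING3 cells, with overlap (log2 difference -0.027, SE 0.061). With the mean of its probe sets CCNB2 stood at -0.037 and CCNB1 at -0.041, and whether the 2 genes differ was not tested. CCNA2, cyclin A, read 1580 and 1660 in control and 1811 and 1781 in ING3 cells (log2 difference 0.15, SE 0.075). CDC25C, the phosphatase that activates CDK1, read 655 and 566 in control and 686 and 701 in ING3 cells (log2 difference 0.19, SE 0.12). For both, the ING3 arrays were the higher on the brightest probe set, and none of the 4 genes passed (1 at an unadjusted p under 0.05). The second probe set of CDC25C past the filter read 85.5 and 146 in control and 88.8 and 90.9 in ING3 cells. It gave -0.31, with overlap.

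Among the kinetochore and passenger genes none passed, also at an unadjusted p under 0.05, and the median log2 difference was 0.075. BIRC5, survivin, which targets the passenger complex to centromeres, read 2051 and 2107 in control and 2447 and 2131 in ING3 cells (log2 difference 0.14, SE 0.083). CENPA, the centromeric histone H3 variant, read 728 and 718 in control and 766 and 816 in ING3 cells (log2 difference 0.13, SE 0.10), on an _x_at probe set, a kind that may also bind related transcripts. Both kept the groups apart. CENPE, the kinetochore kinesin of chromosome congression, and CENPF, a large outer kinetochore protein, overlapped, with log2 differences of 0.021 (SE 0.15) and -0.0022 (SE 0.080). The second probe set of CENPF gave -0.20, also with overlap, and the mean of its probe sets, of which 1 lay under the filter, gave -0.55. For both, ING3 array a was the lowest and ING3 array b the highest of the 4 arrays.

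The spindle assembly genes held the highest difference of the 33, and none of the 6 passed (2 at an unadjusted p under 0.05). HMMR, a microtubule-associated hyaluronan receptor that acts at spindle poles, read 4652 and 4198 in control and 6448 and 5073 in ING3 cells. Both ING3 arrays were the higher, but they also lay further apart than the groups' nearest arrays. Its log2 difference was 0.37 (SE 0.10, 95% interval 0.14 to 0.61, adjusted p = 0.11 by limma), and its other probe set, at 1839 and 1674 in control and 2189 and 2211 in ING3 cells, gave 0.33. Without ING3 array b the difference was 0.545 and passed (adjusted p = 0.011), and without ING3 array a it was 0.20 (adjusted p = 0.20).

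DLGAP5, which stabilises kinetochore fibres, read 1825 and 1792 in control and 2246 and 2000 in ING3 cells (log2 difference 0.23, SE 0.081). KIF2C, a microtubule-depolymerising kinesin of centromeres, and NUSAP1, a microtubule-bundling protein, had log2 differences of 0.12 (SE 0.072) and 0.10 (SE 0.059). In these 3 genes the groups did not overlap. TPX2, the activator of AURKA on the spindle, read 3068 and 2580 in control and 2761 and 2717 in ING3 cells, so that its control arrays spanned both ING3 arrays (log2 difference -0.038, SE 0.087). KIF11, the kinesin that pushes spindle poles apart, also overlapped (log2 difference -0.048, SE 0.094). On their brightest probe sets AURKA and its activator TPX2 both lay within 1 SE of 0.

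Of the 2 genes of the anaphase-promoting complex, neither passed, also at an unadjusted p under 0.05. CDC20, its mitotic activator, read 2658 and 2725 in control and 2731 and 3020 in ING3 cells (log2 difference 0.094, SE 0.073). UBE2C, its ubiquitin-conjugating enzyme, read 7293 and 7702 in control and 7452 and 7573 in ING3 cells (log2 difference 0.0034, SE 0.058). The control arrays of UBE2C enclosed both ING3 arrays, and its 95% interval was -0.13 to 0.13.

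MKI67, the proliferation antigen Ki-67 that coats mitotic chromosomes, read 654 and 636 in control and 744 and 849 in ING3 cells (log2 difference 0.30, SE 0.11, adjusted p = 0.21 by limma). TOP2A, the topoisomerase that untangles sister chromatids, read 5425 and 5146 in control and 5748 and 5715 in ING3 cells (log2 difference 0.12, SE 0.060). Neither gene overlapped between groups, and neither passed (1 at an unadjusted p under 0.05). The MKI67 value rests on its brightest probe set, since its 3 other probe sets past the filter gave 0.12, -0.17 and -0.11.

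Other probe sets of the same genes often went the other way. Of the 33 genes, 18 had another probe set past the filter; for 10 of them all others had the same sign as the brightest, and for 8 at least 1 had the opposite sign. Over the 25 other probe sets the median log2 difference was -0.055, with 10 above 0. ANLN, HMMR, BUB1, CCNA2, ECT2, NEK2 and KIF2C kept a positive sign on each probe set past the filter. All 3 other probe sets of BIRC5 were negative, from -0.15 to -0.036, and so was 1 of the 3 others of CDK1 (-0.19). The second probe set of CCNB2 was near 0 at -0.012, and that of CDC25C stood at -0.31. AURKA was negative on its 3 probe sets. With the mean of a gene's probe sets in place of the brightest, the median over 32 tested members (all but BUB1) was 0.027, against -0.035 over all genes, and 20 of 32 had the higher mean in ING3 cells. Genes that kept their sign but moved by over 1.5 times with this mean were, besides those given, CCNA2 (0.25), MKI67 (0.033), NUSAP1 (0.0099), TOP2A (0.27) and, outside the 33, CENPN (0.22). The second probe sets of TOP2A and NUSAP1 past the filter gave -0.11 and -0.080, each with overlap. The mean for TOP2A also takes in a probe set under the filter, at 6.03 to 29.6, which gave 0.79. The probe positions were not given in the sources used here, so whether the dimmer probe sets read the same transcripts was not tested.

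Single arrays also moved many of these values. Without ING3 array a the log2 difference of BIRC5 was 0.036, that of TTK 0.066, that of ECT2 0.059 and that of DLGAP5 0.15. Without ING3 array b it was 0.021 for CDC20, 0.068 for CDK1 and 0.082 for CENPA. Without control array b it was 0.097 for NEK2, 0.082 for CDC25C and 0.021 for KIF23. These 10 genes stayed above 0 with any 1 array left out, but each moved by over 1.5 times without the array named. The values named are the lowest of each gene with 1 array left out. The highest ran from 0.12 for KIF23 to 0.31 for DLGAP5.

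**Figure D4:**
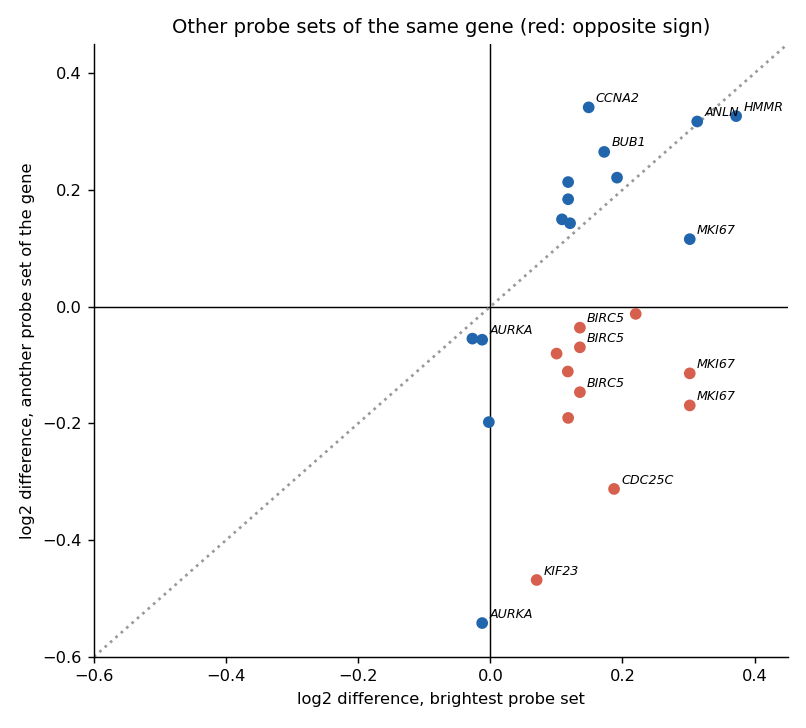
Log2 difference of each other probe set past the filter (vertical) against that of the gene's brightest probe set (horizontal), for the 18 genes with more than 1; the dotted line marks equal values. The points of ANLN and HMMR lie near the line above 0.3, while 11 of the 25 points, in red, have the opposite sign, among them all 3 of BIRC5 and 2 of the 3 of MKI67.

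Of 68 further mitotic genes 66 were tested (CIT and ANAPC1 were not analysed here), and 2 rose (3.03%, where 1.03% of all tested genes did) and 0 fell (0.476%), so the calls are near the background share. FBXO5, an inhibitor of the anaphase-promoting complex, read 1198 and 1208 in control and 1738 and 1625 in ING3 cells, with no overlap. It rose 1.40-fold (log2 difference 0.48, SE 0.081, adjusted p = 0.027 by limma), and by 0.32 as the mean of its probe sets. NDC80, the kinetochore protein that binds microtubules, read 3215 and 2970 in control and 4008 and 4082 in ING3 cells, also with no overlap. It rose 1.31-fold (log2 difference 0.39, SE 0.067, adjusted p = 0.028 by limma). Each of these 2 calls held in 6 alternative settings, of 11 that could be run for FBXO5 and 12 for NDC80, with adjusted p from 0.0071 to 0.24 and from 0.0082 to 0.28. Both calls were lost without control array a (adjusted p = 0.24 and 0.20) and without control array b (adjusted p = 0.23 and 0.28).

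The median log2 difference of these 66 genes was 0.062, and 45 (68.2%) had the higher mean in ING3 cells, against 48.3% of all tested genes. Both ING3 arrays were the higher for 25 (37.9%, against 24.3% of all tested genes) and the lower for 12 (18.2%, against 24.9%). At an unadjusted p under 0.05 in limma the count was 16 (24.2%), against 17.7% of all tested genes. Of those not called, CENPN, a centromere protein that reads CENPA nucleosomes, had the highest difference at 0.39 (SE 0.087), followed by NCAPG2 of condensin II at 0.37 (SE 0.10) and SPC25 of the NDC80 complex at 0.32 (SE 0.12). The lowest were INCENP, the scaffold of the passenger complex, at -0.80 (SE 0.47), CENPI at -0.57 (SE 0.22) and TACC3, a spindle protein phosphorylated by AURKA, at -0.35 (SE 0.13). INCENP was dim, at 103 and 94.3 in control and 34.6 and 90.3 in ING3 cells, and without ING3 array a its difference was -0.12. Without ING3 array b, CENPI was at -0.33 and NCAPG2 at 0.24. CENPN passed without ING3 array a (adjusted p = 0.029), as did NCAPG2 (adjusted p = 0.038).

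None of 21 tested regulators of this programme passed the limma test, and their median log2 difference was 0.046. At an unadjusted p under 0.05 the count was 3 (14.3%), against 17.7% of all tested genes. FOXM1, the forkhead activator of the late cell cycle genes, read 1180 and 1240 in control and 1377 and 1430 in ING3 cells, with no overlap (log2 difference 0.21, SE 0.083), on a probe set of the _x_at kind. MYBL2, its partner on MuvB, overlapped (log2 difference 0.084, SE 0.12). The MuvB subunits LIN9 and LIN54 were dim and overlapped between groups, with log2 differences of 0.48 (SE 0.32) and 0.11 (SE 0.38). The value of LIN9 ran from 0.149 to 0.82 when 1 array was left out, with the lowest without control array a. CDKN1A, the CDK inhibitor p21, read 289 and 239 in control and 323 and 346 in ING3 cells (log2 difference 0.34, SE 0.17). CDKN1B and RB1, which restrain cells in G1, had log2 differences of 0.058 (SE 0.059) and 0.13 (SE 0.084). Without ING3 array a RB1 was at 0.017, and without control array b CDKN1A was at 0.21. Of the 21, 14 had positive and 7 negative differences, and the 8 activators had a median of -0.044, with 4 of them negative. The following were chosen after their values were seen. NFYA, a subunit of NF-Y, stood at 0.28 (SE 0.080) with its ING3 arrays the higher, while the S phase activators E2F1 and E2F2 stood at -0.38 (SE 0.24) and -0.30 (SE 0.15) with theirs the lower. E2F4, the repressor E2F of DREAM, overlapped at -0.26 (SE 0.13). RBL2, also of the DREAM genes, stood at 0.21 (SE 0.066) with its ING3 arrays the higher. The 10 tested genes of DREAM and MuvB had a median of 0.042, with 7 positive and 3 negative.

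Of 25 genes of S phase and DNA replication, none passed the limma test (5 at an unadjusted p under 0.05). Their median log2 difference was 0.017, 14 stood higher and 11 lower in ING3 cells by their means, and both ING3 arrays were the higher for 7 (28.0%) and the lower for 6 (24.0%). These shares lay near those of all tested genes (24.3% and 24.9%), whereas the 33 G2 and mitotic genes stood at 60.6% and 3.03%. Whether the lists differ was not tested.

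**Figure D5:**
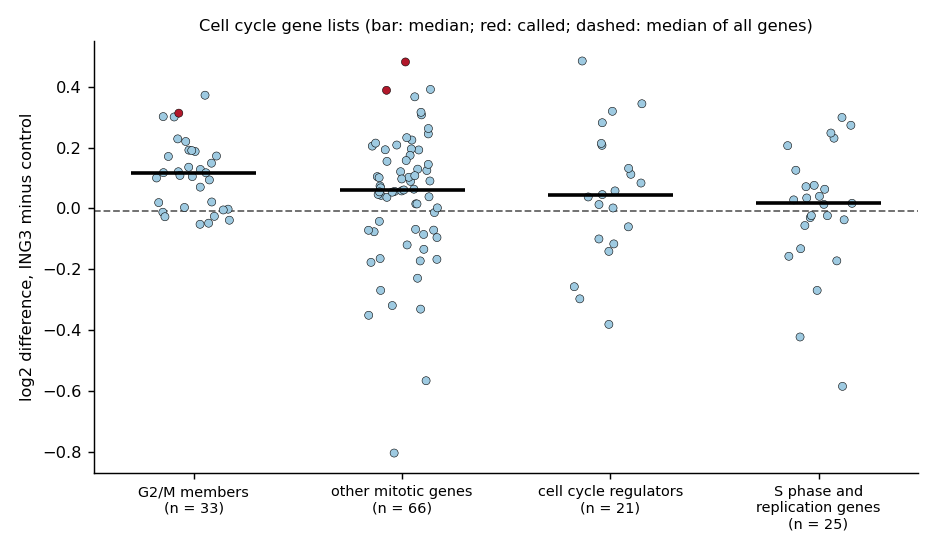
Log2 difference, ING3 minus control, of each tested gene in 4 cell cycle lists; horizontal bars are list medians, red points are called genes and the dashed line is the median of all 12190 tested genes (-0.0074). The medians are 0.12, 0.062, 0.046 and 0.017 from left to right, and the called points are ANLN in the first list and FBXO5 and NDC80 in the second.

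On the brightest probe sets and in the main limma setting, no 95% interval among the 33 genes reached a 2-fold difference in either direction. The highest upper end was 0.61 for HMMR, which is 1.52-fold, and the lowest lower end was -0.31 for CENPE. Other probe sets gave values past these ends, with AURKB at 0.64 and CENPF at -0.55 as means of their probe sets and AURKA at -0.54 on its dimmest probe set. The intervals cover the spread between arrays of the same populations and leave out the spread between cultures.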

How the data were processed

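Signals from the arrays' 54675 probe sets were deposited as linear intensity values. Per the submitters' processing notes, MAS5 and Affymetrix Expression Console were used; their versions are not stated. MAS5 scales each array by 1 factor, and no detection calls were used here. Without the 62 control probe sets, GEO's platform annotation gave 41091 of them 1 gene symbol. A gene was represented by the brightest of these, by mean log2(signal + 1), and 12190 of 19775 genes, those at or above the median of all probe sets, were tested.

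The main test was limma 3.58.1 under R 4.3.3 (lmFit, then eBayes with an intensity trend; two-sided; no covariates). P-values were adjusted by Benjamini-Hochberg over all tested genes, and genes under an adjusted 0.05 were called; "rose" and "fell" refer to these. Fits had 2 residual and 7.35 prior degrees of freedom. Levels are linear signals as mean ± SD of 2 arrays, and log2 differences carry limma's moderated standard error (SE). The fit was also run on simulated data. These were drawn from the variances that the fit itself assumes, so they cannot test those assumptions. Alternatives were other normalizations, pseudocounts, filters and probe set choices, leaving out each array, and a replicate block.

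The 33 genes and the lists were chosen with earlier results of these data known. Outside the 33, the text names called genes of the other lists, the 3 highest and 3 lowest uncalled mitotic genes, and regulators chosen by name.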

Additional observations from a re-analysis of the deposited data

How the results depend on the processing

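Over all tested genes 183 were called. The count was 0 in limma without an intensity trend (1686 at an unadjusted p under 0.05), 115 after quantile normalization, 54 without the filter on dim genes, 37 with the mean of a gene's probe sets, 100 with probe sets not of the _x_at or _s_at kind, and 2 to 305 when 1 array was left out (2 without control a, 2 without control b, 305 without ING3 a, 181 without ING3 b). Of the 33 mitotic genes, 1 was called, and 0 were in limma without a trend (3 at an unadjusted p under 0.05), after quantile (7) or cyclic loess (8) normalization, without the filter (8), with the mean of probe sets (6) and with probe sets not of the _x_at or _s_at kind (7 of 24 tested); with 1 array left out 0 to 2 were. Of the other mitotic genes, 2 were called, 0 without a trend, without the filter and with the mean of probe sets, 1 after quantile normalization and 1 without _x_at and _s_at probe sets, and 0 to 4 with 1 array left out. The median log2 difference, 0.12, was 0.027 with the mean of probe sets, and 0.097 to 0.12 with 1 array left out. It was 0.11 after quantile and after cyclic loess normalization, but single genes moved both ways. After quantile normalization CDK1 was at 0.056, ECT2 at 0.061, NUSAP1 at 0.054 and TOP2A at 0.068, each lower than in the main setting. PLK1 was at 0.20, KIF23 at 0.11 and CENPE at 0.065, each higher. AURKA (-0.058) and CCNB1 (-0.086) lay further below 0.

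With the letters a and b as a replicate block, 442 genes, 2 mitotic members (ANLN and HMMR) and 3 other mitotic genes were called. Deviations from the group mean had a correlation of 0.029 between the control and ING3 arrays lettered a. The labels do not say whether the letters pair arrays, and this value cannot show it.

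These log2 differences changed sign, and the cause was not tested. With the mean of probe sets they were -0.029 for BIRC5, -0.037 for CCNB2, -0.15 for ECT2, -0.20 for KIF23 and -0.24 for RB1. This mean also takes in probe sets under the filter. ECT2 was negative only on its probe set under the filter (-0.71), and CCNB2 was lowest on its own (-0.32). Without _x_at and _s_at probe sets the log2 differences were -0.070 for BIRC5 and -0.47 for KIF23. After quantile normalization they were 0.015 for KIF20A, -0.011 for RACGAP1 and -0.059 for UBE2C, and after cyclic loess 0.014 for KIF20A and -0.048 for UBE2C. With 1 array left out they ran from -0.19 to 0.084 for BUB1B, -0.079 to 0.024 for CCNB1, -0.19 to 0.24 for CENPE, -0.093 to 0.089 for CENPF, -0.16 to 0.065 for KIF11, -0.093 to 0.083 for KIF20A, -0.27 to 0.50 for LIN54, -0.052 to 0.22 for MYBL2, -0.023 to 0.23 for PLK1, -0.074 to 0.023 for PRC1, -0.081 to 0.12 for RACGAP1, -0.16 to 0.086 for TPX2 and -0.036 to 0.043 for UBE2C. Precision is limited by 2 arrays per group from 1 population each.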
